A study of Mus musculus with 18 samples.

Results

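The genes described here are 8 enzymes of cholesterol synthesis that were listed by name: Hmgcs1, Idi1, Fdps, Fdft1, Sqle, Lss, Cyp51 and Msmo1, out of 24035 genes counted. All 8 passed the filter on low counts in ribosome-protected fragments (RPF, the stretches of mRNA that a ribosome shields from nuclease) and in mRNA. The list holds synthesis enzymes and no uptake gene, so genes of uptake and transport are given from a second list set beside it. The libraries come from NIH3T3, an established mouse fibroblast line kept in DMEM with serum, and each group has 3 RPF and 3 mRNA libraries. The Torin1 group is WT NIH3T3 treated for 3 h with 200 nM Torin1, which competes with ATP at the mTOR kinase. The C1483Y group is NIH3T3 edited with CRISPR in Mtor, the kinase gene itself, and treated with vehicle. The WT group is unedited NIH3T3 treated with vehicle. The labels name a single edited line, so the edit and the line cannot be told apart. Nor is it said whether replicates came from separate cultures, so p-values reflect the spread of these libraries, part of which may be technical.

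Cholesterol is built from acetyl-CoA through mevalonate, isoprenoid diphosphates, squalene and lanosterol. The genes of this route are classical targets of Srebp2, a membrane-bound transcription factor that is released to the nucleus when sterols in the endoplasmic reticulum are low. mTOR is known to promote Srebp2 activity, and it separately controls translation of mRNAs that begin with a tract of pyrimidines. The comparison with Torin1 therefore bears on both the amount of these mRNAs and the ribosomes on them, which is why the promoters are shown first.

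Promoter windows of 250 bases before and 50 bases from the annotated start were taken from RefSeq (GRCm38.p6) and were found for 5 of the 8 genes: Hmgcs1, Idi1, Lss, Cyp51 and Msmo1. Windows of Fdps, Fdft1 and Sqle were not used here. A sterol regulatory element (SRE) was searched as TCACNCCAC and, overlapping it, as its core CACCCCAC; a CCAAT box as CCAAT; a GC box as GGGCGG; and an E-box as CACGTG, each on both strands. Of the 5 windows, 1 held the SRE, that of Hmgcs1, against 1.24% of 32851 windows in the table; the core was also found in that window alone, against 2.87%. The SRE began 137 bases before the start. A CCAAT box was present in 5 of 5 windows, against 37.4% of all windows, with 4 boxes in Hmgcs1, 3 in Msmo1, 2 in Idi1 and 1 each in Lss and Cyp51. GC boxes were also in 5 of 5, against 35.7%, and the E-box in 0 of 5, against 7.15%. A transcript start at C with at least 5 pyrimidines in a row, as in mRNAs with a terminal pyrimidine tract, was annotated in 0 of 5 windows, against 2.51% of all windows. The annotated first base was G in 4 of them and A in Msmo1. Such matches describe letters in these windows and not binding. The windows of 3 genes are printed, 5′ to 3′ on the gene's strand: Hmgcs1 for its SRE, Msmo1 for its row of CCAAT boxes and Cyp51 as a window with 1 box. Capitals mark the SRE and the CCAAT boxes, which read ATTGG where the box lies on the opposite strand. They lie at chr13:119690101-119690400 (plus strand), chr8:64733529-64733828 (minus strand) and chr5:4104648-4104947 (minus strand).
Hmgcs1: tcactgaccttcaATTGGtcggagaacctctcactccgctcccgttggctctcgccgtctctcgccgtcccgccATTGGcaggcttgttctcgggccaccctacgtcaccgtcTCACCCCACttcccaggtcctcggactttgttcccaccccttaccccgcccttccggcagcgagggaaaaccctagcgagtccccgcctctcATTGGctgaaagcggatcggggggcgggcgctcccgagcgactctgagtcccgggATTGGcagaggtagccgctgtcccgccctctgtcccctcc
Msmo1: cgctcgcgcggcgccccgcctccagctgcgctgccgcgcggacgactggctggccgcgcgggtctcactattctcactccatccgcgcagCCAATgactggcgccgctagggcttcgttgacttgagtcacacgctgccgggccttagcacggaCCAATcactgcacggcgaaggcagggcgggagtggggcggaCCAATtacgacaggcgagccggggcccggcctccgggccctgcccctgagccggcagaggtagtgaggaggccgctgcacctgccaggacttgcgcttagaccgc
Cyp51: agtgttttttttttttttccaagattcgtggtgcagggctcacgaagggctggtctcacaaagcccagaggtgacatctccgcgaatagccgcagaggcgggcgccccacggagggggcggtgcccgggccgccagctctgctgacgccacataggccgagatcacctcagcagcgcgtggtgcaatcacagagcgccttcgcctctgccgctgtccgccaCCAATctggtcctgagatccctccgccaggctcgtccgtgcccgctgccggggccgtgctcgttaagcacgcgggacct

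Gene reads per RPF library were 16.8 to 31.07 M (1e6 reads) under Torin1, 4.681 to 6.962 M for C1483Y and 13.04 to 42.82 M in WT; per mRNA library they were 12.06 to 51.74 M, 4.418 to 42.29 M and 26.69 to 94.3 M in the same order of groups. Libraries labelled C1483Y stood apart from the fibroblast label. All 10 fibroblast markers had reads in every library, but their summed level in RPF was 2050 to 3490 CPM (a gene's reads per 1e6 reads of its library, after TMM scaling within an assay) in libraries labelled C1483Y, against 16000 to 24200 CPM under Torin1 and 22500 to 31100 CPM in WT. Neuron and glia markers summed to 1300 to 1700 CPM in RPF labelled C1483Y, with Rbfox3 and Snap25 at 0, against 1.46 to 29.1 CPM under Torin1 and 15.7 to 22.8 CPM in WT. Muscle and adipocyte markers summed to 938 to 1510 CPM, with Myod1, Myog and Adipoq at 0, against 7.99 to 54.9 CPM under Torin1 and 10.9 to 43.5 CPM in WT. Epithelial markers summed to 27.6 to 114 CPM, with Krt5 and Krt14 at 0, against at most 0.0588 CPM under Torin1 and 0.44 CPM in WT. Leukocyte and endothelial markers summed to at most 17.3 CPM in any RPF library, with Ptprc at 0 in those labelled C1483Y, where hepatocyte and steroid-making cell markers were all at 0 too. The high sums rested on few genes: Tubb3 had 1180, 923 and 1170 CPM and Uchl1 342, 381 and 525 CPM in C1483Y replicates 1, 2 and 3, Acta1 had 1460, 1250 and 913 CPM, and Krt18 had 39.5, 114 and 27.6 CPM. Of the same lists, Fabp4 and Cd68 were at 0 in these libraries, and Map2 was at 0 in replicates 2 and 3. In mRNA, replicate 3 of Torin1 and replicate 2 of C1483Y were close to identical (r = 0.999 of log2 CPM across genes, which are not independent replicates), with 5015 and 5454 reads of Hmgcs1, 47483 and 53327 of Fdps and 14470 and 15844 of Msmo1. The chi-square of their counts was 8.66 per degree of freedom, against at least 441 in other mRNA pairs, so they were far closer to each other than to any other library while differing by more than sampling noise. Whether they are 1 library under 2 labels cannot be told from the files. Both were kept under their labels, so the 3 mRNA libraries of Torin1 and of C1483Y may hold a shared one, and values without them are given with the mRNA results.

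Under Torin1, the RPF of all 8 enzymes had lower means than in WT. No enzyme passed the main test, whose spread was fitted with the libraries labelled C1483Y included. Together they took 1830 ± 295 CPM of RPF under Torin1 and 3140 ± 483 CPM in WT (SD, n = 3 each), and the 3 Torin1 libraries (1630 to 2170 CPM) lay below the 3 WT libraries (2710 to 3660 CPM). As a share of gene reads this was 0.185% to 0.215% under Torin1 and 0.288% to 0.370% in WT. These are bulk libraries scaled to other genes, so fewer cells of a kind and less RNA per cell cannot be told apart, and a change shared by all mRNAs would not show.

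Hmgcs1 (chr13:119690351-119708260) encodes the synthase that makes HMG-CoA, early in the route. Its RPF level was 305, 226 and 357 CPM in Torin1 replicates 1, 2 and 3, against 494, 342 and 403 CPM in WT. The groups overlapped, since Torin1 replicate 3 lay above WT replicate 2. Idi1 (chr13:8885606-8892396), the isomerase that interconverts the basic isoprenoid units, had 147, 82.3 and 63.4 CPM under Torin1 and 327, 246 and 292 CPM in WT. All its Torin1 libraries lay below all WT libraries, and replicate 1 was the highest of the Torin1 group. Fdps (chr3:89093588-89101967), which makes farnesyl diphosphate, had 560, 323 and 344 CPM under Torin1 and 938, 717 and 933 CPM in WT. These groups did not overlap either.

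The next enzymes lead from farnesyl diphosphate to squalene and lanosterol. Fdft1 (chr14:63145150-63181687), squalene synthase and the branch point toward sterols, had 213, 149 and 157 CPM of RPF under Torin1 and 328, 249 and 176 CPM in WT. The groups overlapped, since WT replicate 3 lay among the Torin1 values. Sqle (chr15:59315092-59331193), the squalene epoxidase that is a second control step of the route, had 267, 260 and 203 CPM under Torin1, against 370, 259 and 272 CPM in WT. These groups also overlapped, since WT replicate 2 lay below Torin1 replicates 1 and 2. Lss (chr10:76531565-76557139), which closes the ring system to give lanosterol, had 136, 147 and 142 CPM under Torin1 and 258, 185 and 198 CPM in WT. The Torin1 values were close together and below all WT values.

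The last pair modify lanosterol. Cyp51 (chr5:4080674-4104697), the cytochrome P450 that removes a methyl group from lanosterol, had 350, 255 and 252 CPM of RPF under Torin1 and 551, 455 and 418 CPM in WT. Msmo1 (chr8:64718123-64733578), a methylsterol monooxygenase, had 193, 191 and 172 CPM under Torin1 and 397, 259 and 342 CPM in WT. In both genes the groups were separate. In all, 5 of 8 enzymes (Idi1, Fdps, Lss, Cyp51 and Msmo1) had all Torin1 libraries below all WT libraries, against 10.7% of the 11085 genes tested.

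**Figure D1:**
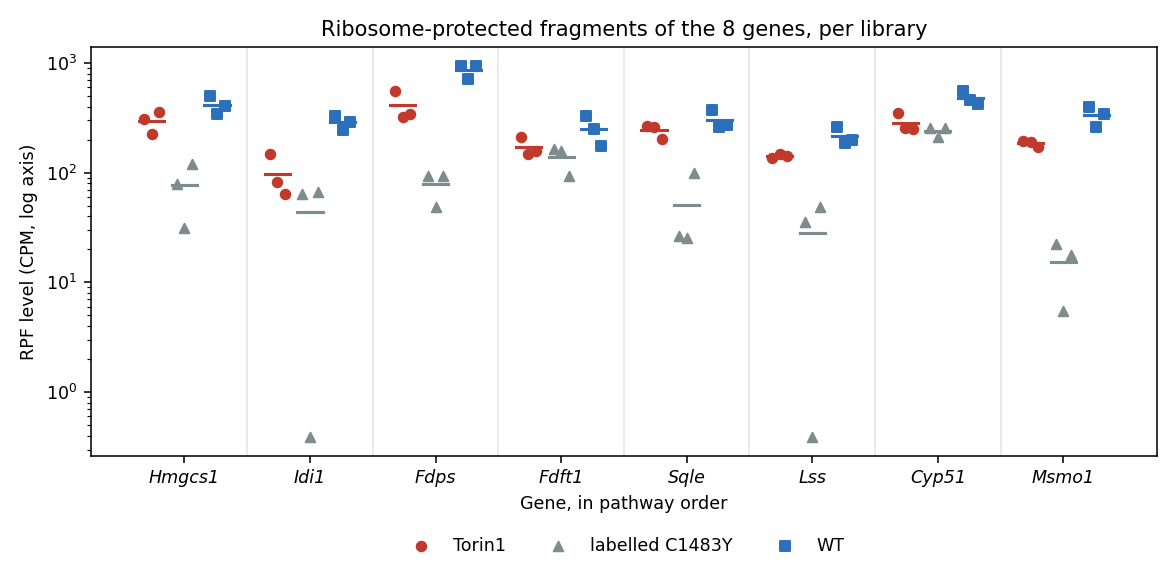
RPF level of each of the 8 genes in CPM (log axis) in every library, with Torin1 as circles, libraries labelled C1483Y as triangles and WT as squares, and a bar at each group's mean. Torin1 circles lie below the WT squares without overlap in Idi1, Fdps, Lss, Cyp51 and Msmo1, while Idi1 and Lss each have a C1483Y library at 0.389 CPM.

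edgeR's quasi-likelihood test with Benjamini-Hochberg adjustment over all 11085 genes called 0 of 8 enzymes at the threshold of 0.05, against 0.749% of all genes in either direction. Fitted log2 changes, Torin1 over WT, were below 0 in 8 of 8 enzymes, against 47.4% of all genes, and their median was -0.66, against 0.03 over all genes. Fdps had a log2 change of -1.08 (SE 0.332, 95% interval -1.81 to -0.35), or 0.474 times the WT level, with unadjusted p = 0.00753 and adjusted p = 0.466. For Cyp51 it was -0.73 (SE 0.263, interval -1.31 to -0.16, unadjusted p = 0.0172, adjusted p = 0.761). These were the 2 enzymes with an unadjusted p under 0.05, against 460 of all 11085 genes. Idi1 had the lowest estimate and the widest interval, -1.57 (SE 0.991, interval -3.74 to 0.61, adjusted p = 1). Msmo1 followed with -0.84 (SE 0.442), then Lss with -0.59 (SE 0.9), Fdft1 with -0.54 (SE 0.356), Hmgcs1 with -0.48 (SE 0.426) and Sqle with -0.30 (SE 0.489), and each had adjusted p = 1. The intervals of these 6 enzymes include 0 and reach below -1. Both no change and a fall to below 0.5 times the WT level thus lie inside them. Their spread was fitted with the libraries labelled C1483Y included, not over Torin1 and WT alone. In C1483Y replicate 2, Idi1 and Lss had 0.389 CPM each. Lss had 136 to 147 CPM under Torin1 and 185 to 258 CPM in WT, beside its SE of 0.9. The part of the C1483Y libraries in the width of these intervals was not tested.

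By DESeq2 0 of 8 were called, against 1.34% of all genes, but limma-voom called 2, Idi1 (log2 change -1.67, adjusted p = 0.0248) and Fdps (-1.08, adjusted p = 0.0078), against 1.86% of all genes. With the Torin1 and WT libraries fitted alone edgeR called 1, Idi1 (adjusted p = 0.0464), against 1.31% of all genes. Of the 8, 5 had an unadjusted p under 0.05 in this fit and by limma-voom, 2 by DESeq2 and 1 without WT replicate 1. The share of all genes at that p was not computed for these settings. Over all 12 alternatives the adjusted p ran between 0.0248 and 1 for Idi1 and between 0.0078 and 1 for Fdps. Without WT replicate 1, the highest WT library of the set, the median of the 8 was -0.39 and 7 of 8 were below 0.

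Library by library, the median log2 ratio of the 8 genes to their WT mean was -0.53, -0.83 and -0.80 in Torin1 replicates 1, 2 and 3. In WT it was 0.26, -0.22 and -0.07. All 8 genes lay below their WT mean in each Torin1 library, and also in WT replicate 2. The 3 Torin1 values lay below the 3 WT values, with a gap narrower than the range within WT.

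The reads of the 8 enzymes divided among them in overlapping shares for 5 of 8. Fdps took 22.0% ± 3.33 of the RPF reads of the 8 genes under Torin1 and 27.6% ± 2.76 in WT (SD, n = 3 each). Cyp51 took 15.5% ± 0.607 under Torin1 and 15.2% ± 1.5 in WT, and Msmo1 10.3% ± 1.4 under Torin1 and 10.6% ± 0.895 in WT. The shares whose groups did not overlap were those of Hmgcs1, with 16.3% ± 4.13 under Torin1 and 13.1% ± 0.461 in WT, Idi1, with 5.18% ± 1.51 under Torin1 and 9.21% ± 0.363 in WT, and Sqle, with 13.4% ± 2.16 under Torin1 and 9.53% ± 0.568 in WT. For Hmgcs1 the separation was narrow, with 13.8% in Torin1 replicate 2 against 13.5% in WT replicate 1. Its highest share, 21.1%, was in Torin1 replicate 3. No test was made of shares, which are bound to each other.

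**Figure D2:**
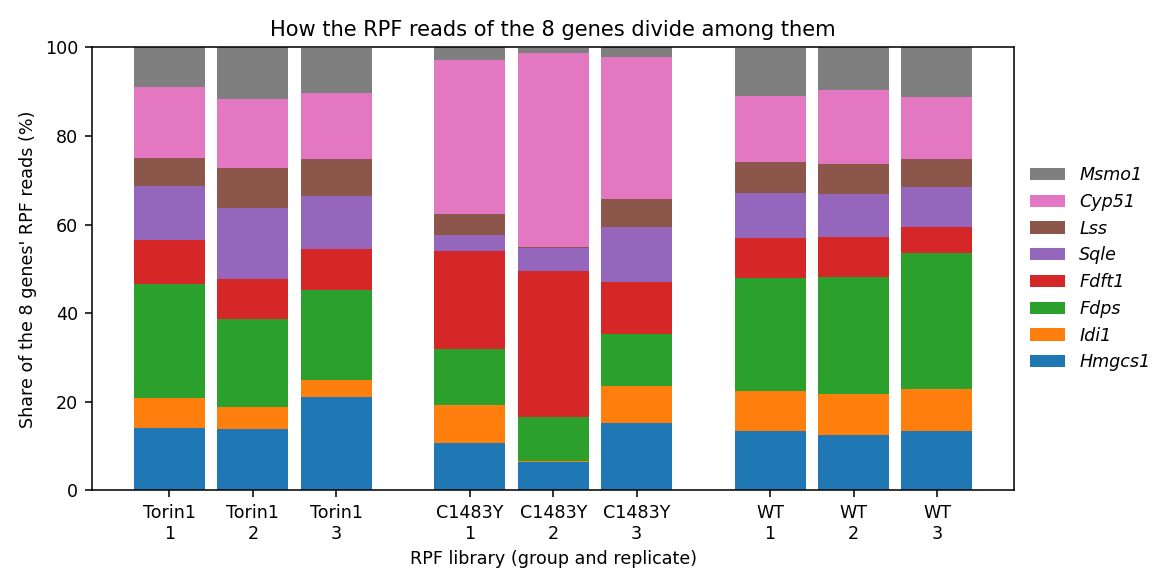
Share of the 8 genes' RPF reads taken by each gene, in percent, in every RPF library. Torin1 and WT bars do not overlap in the shares of Hmgcs1, Idi1 and Sqle (Idi1 5.18% under Torin1 and 9.21% in WT on average), while Cyp51 and Fdft1 take larger mean shares in the libraries labelled C1483Y (36.9% and 22.2%) than in WT (15.2% and 7.98%).

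The levels of mRNA were compared to see whether the transcripts moved with the ribosomes, and replicates of a group spread too widely to show it. Summed over the 8 genes, mRNA took 2290 ± 883 CPM in Torin1 libraries and 4050 ± 2120 CPM in WT (SD, n = 3 each), with library values of 2270, 1410 and 3180 CPM under Torin1 and 2340, 6420 and 3390 CPM in WT. The groups overlapped for the sum and for each of the 8 genes, where 9.82% of 7121 genes had groups that did not overlap in either direction. Hmgcs1 had 284, 5.89 and 165 CPM of mRNA in Torin1 replicates 1, 2 and 3 and 201, 1150 and 350 CPM in WT. Replicates of a group thus differed by far more than the group means did. Idi1 had 196, 126 and 0.263 CPM under Torin1 and 194, 0.817 and 202 CPM in WT, so each group held a library with almost no Idi1 reads. Fdps had 763, 356 and 1560 CPM under Torin1 and 705, 2390 and 1300 CPM in WT. Sqle was the steadiest under Torin1, with 217, 211 and 187 CPM, inside the WT values of 107, 243 and 305 CPM. For Msmo1 the mRNA level was 123, 111 and 475 CPM under Torin1 and 322, 393 and 440 CPM in WT. Its highest Torin1 value came from replicate 3, the library close to identical with one labelled C1483Y.

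The other 3 genes spread as widely. Fdft1 mRNA stood at levels of 88.6, 266 and 525 CPM under Torin1 and 165, 23.7 and 412 CPM in WT. For Lss the mRNA values were 223, 35.4 and 222 CPM under Torin1 and 148, 704 and 110 CPM in WT. Those of Cyp51 were 377, 301 and 44.4 CPM under Torin1 and 494, 1510 and 268 CPM in WT. The same library was not low for all genes: Torin1 replicate 2 held the lowest Hmgcs1 and Lss values and replicate 3 the lowest Idi1 and Cyp51 values.

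edgeR called 0 of 8 enzymes in mRNA, against 0.014% of 7121 genes. An unadjusted p under 0.05 was found for 507 of all 7121 genes and for 0 of the 8 enzymes. DESeq2, which gave no adjusted p for 1 of them, called 0 against 7.01% of all genes, and limma-voom 0 against 0.225%. The median log2 change of the 8 was -0.71, against 0.02 over all genes. Estimates ran from -1.90 for Hmgcs1 (SE 1.8) to 0.55 for Fdft1 (SE 1.9), and all had adjusted p = 1. The narrowest interval, that of Fdps, ran from -2.67 to 1.24, so it holds both a fall as large as that estimated for its RPF and a rise of more than 2-fold. Leaving out single libraries moved the median between -1.26, without Torin1 replicate 3, and -0.39, without Torin1 replicate 2.

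**Figure D3:**
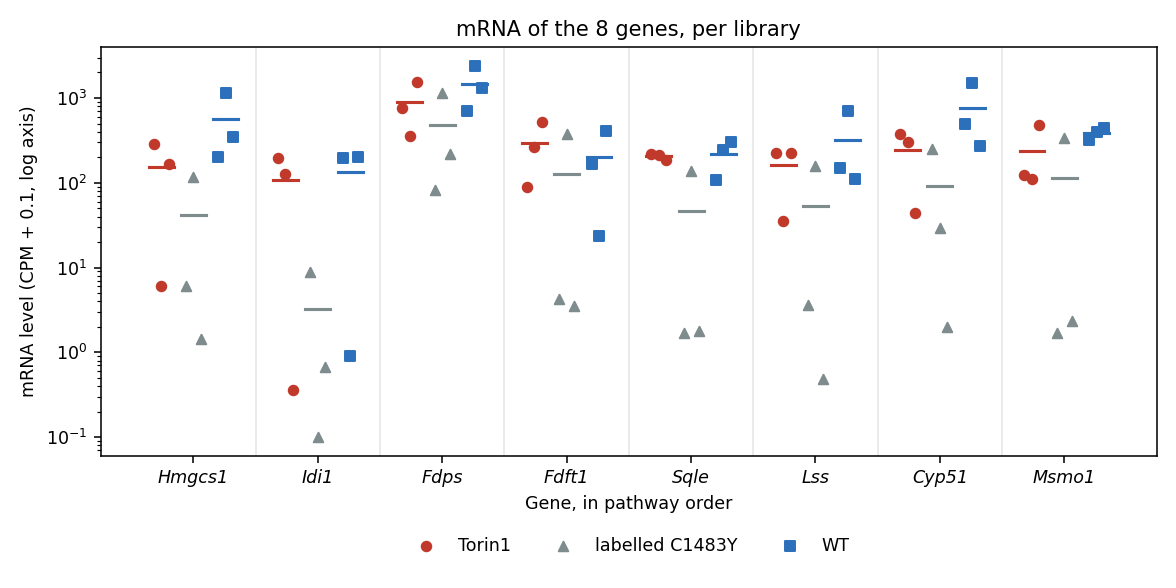
mRNA level of the 8 genes in every library, as CPM + 0.1 on a log axis, with Torin1 as circles, libraries labelled C1483Y as triangles, WT as squares and a bar at each group's mean. Torin1 and WT overlap in all 8 genes, and Idi1 has a library near 0 in both groups (0.263 CPM under Torin1 and 0.817 CPM in WT).

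Translational efficiency (TE), the RPF level relative to mRNA, was tested as the difference between the RPF and mRNA changes in one model of all 18 libraries. edgeR called 0 of 8 enzymes, against 0.0283% of 7072 genes. An unadjusted p under 0.05 was found for 782 of all 7072 genes and for 0 of the 8 enzymes. DESeq2 called 0 against 7.68% of all genes, and limma-voom 0 against 0.24%. The median log2 change in TE was -0.12, against -0.08 over all genes, and each enzyme had adjusted p = 0.999. Fdps had a TE change of -0.30 (SE 1.13, 95% interval -2.62 to 2.01), the narrowest interval of the set. The highest estimate was 1.48 for Hmgcs1 (SE 1.76) and the lowest -1.21 for Idi1 (SE 2.66). The sign of the median was not fixed: without Torin1 replicate 3 it was 0.52, without WT replicate 1 it was 0.32, and without WT replicate 2 it was -0.37. Whether the RPF of these genes moved with their mRNA or apart from it could not be read from these libraries.

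**Figure D4:**
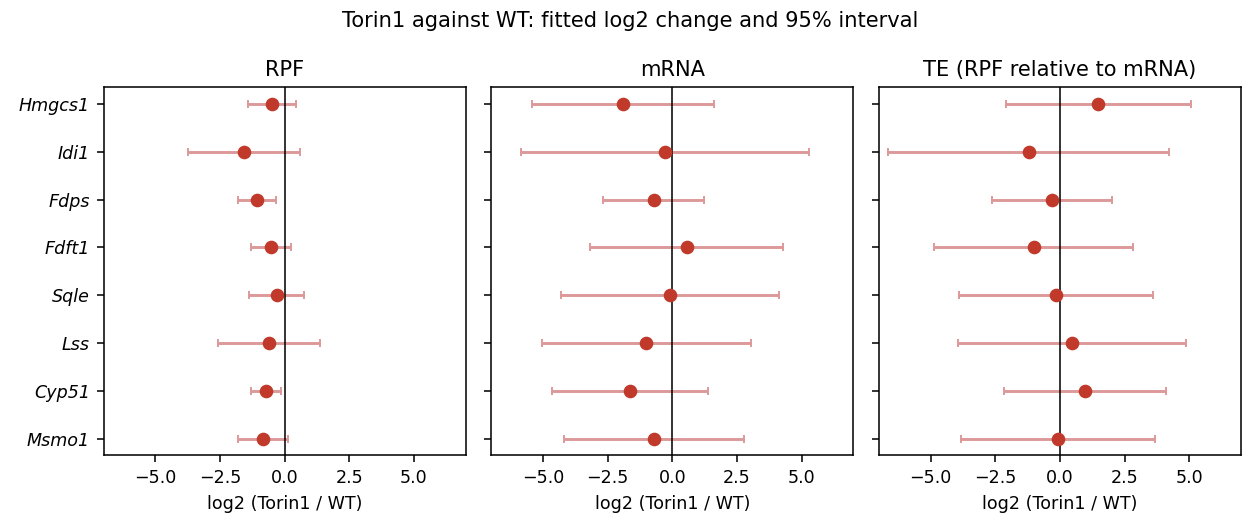
Fitted log2 change of each gene, Torin1 over WT, in RPF, mRNA and TE, with 95% intervals from edgeR; the vertical line is no change. RPF estimates lie between -1.57 and -0.30 with short intervals for Fdps and Cyp51 that leave out 0, while all mRNA and TE intervals cross 0.

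Other genes of the route and of its control were set beside the 8. For comparison with the counts below, 460 of all 11085 genes had an unadjusted p under 0.05 in RPF under Torin1. Of 13 other sterol synthesis enzymes, 0 were called in RPF under Torin1, 13 were below 0 and 3 had an unadjusted p under 0.05, with a median log2 change of -0.93. Among them Dhcr7, which completes cholesterol from its last precursor, had 36.7, 15.3 and 26.9 CPM under Torin1 and 49.6, 40.4 and 74.7 CPM in WT (log2 change -1.06, SE 0.377, adjusted p = 0.751). Its groups were separate, as were those of 10.7% of all 11085 genes in the same direction. The 7 genes of isoprenoid side branches, which feed dolichol, ubiquinone and protein prenylation, had 3 below 0 and a median of 0.02, with 0 called and 0 at an unadjusted p under 0.05. The sterol branch and these side branches thus had different medians, which were not tested against each other.

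Of 16 genes of cholesterol uptake, transport and efflux, 14 were tested in RPF under Torin1, with 0 called, 3 at an unadjusted p under 0.05, 12 below 0 and a median log2 change of -0.57. Tmem97, which binds the lysosomal transporter of cholesterol, had the lowest estimate, -1.94 (SE 0.694, adjusted p = 0.761), and Lrp1, an endocytic receptor, had 0.76 (SE 0.377, adjusted p = 1). Among 10 tested genes of Srebp2 control, 0 were called, 1 had an unadjusted p under 0.05, 6 were below 0 and the median was -0.26. Srebf2, which encodes Srebp2, had 190, 187 and 223 CPM under Torin1 and 246, 299 and 312 CPM in WT (log2 change -0.51, SE 0.377, adjusted p = 1). Insig1, the sterol-responsive anchor that holds the Srebp2 complex in the endoplasmic reticulum and is itself an Srebp target, had 70.7, 48.1 and 41.5 CPM under Torin1 and 103, 86.4 and 89.3 CPM in WT. Both had all Torin1 libraries below all WT libraries without passing the test (Insig1 log2 change -0.80, adjusted p = 1). Such separation was found in 10.7% of all 11085 genes, and it was not counted over each of these lists.

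The 9 fatty acid synthesis genes, targets of the related factor Srebp1, were below 0 in 9 of 9, with a median of -0.57 and 0 called; 1 had an unadjusted p under 0.05. The 5 translation genes whose mRNAs are known to need mTOR (Eef1a1, Eef2, Pabpc1, Rps6 and Tpt1) fell in 5 of 5, against 0.74% of all genes. Their median was -2.68, from Eef1a1 at -3.00 (edgeR adjusted p = 0.000163) to Rps6 at -2.14 (adjusted p = 0.00126). In TE, 2 of these 5 fell (Eef1a1 and Eef2), against 0.0283% of all genes. Those calls were lost with DESeq2 size factors and with TMM over all 18 libraries, where 0 genes were called. The median of the 8 cholesterol enzymes was much nearer to 0 than that of these genes in the same libraries. Both lists were chosen with earlier results of these data known. In mRNA, 0 genes of any of these lists were called, and the medians were -0.70 for other sterol enzymes, -0.59 for uptake and transport, -0.30 for Srebp2 control, -0.24 for fatty acid synthesis, 0.05 for isoprenoid branches and -0.05 for the translation genes.

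**Figure D5:**
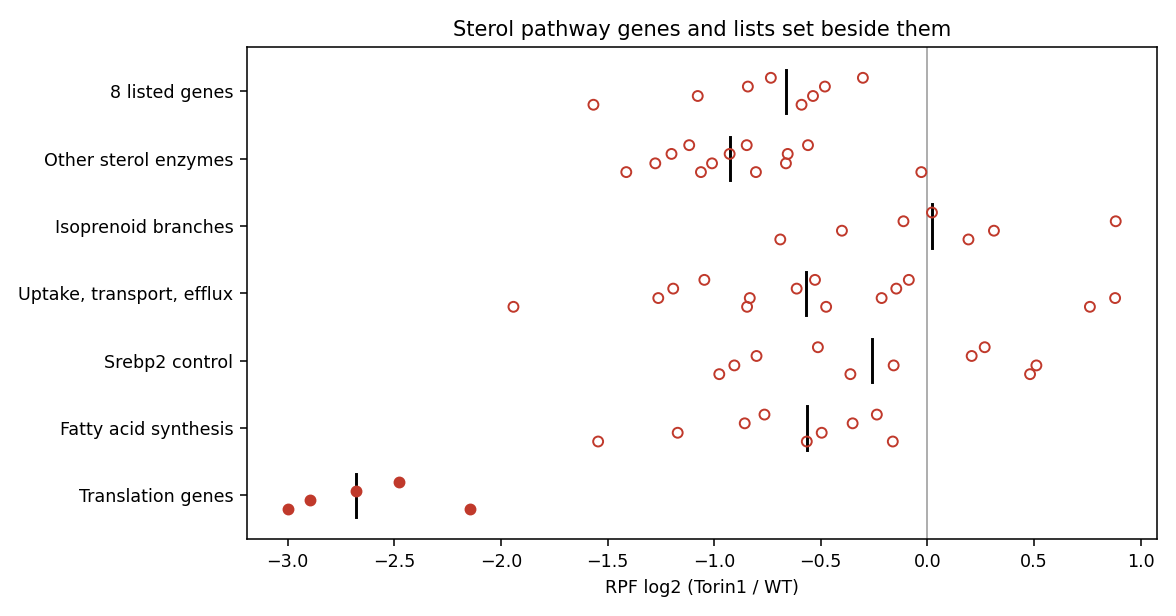
Log2 RPF change, Torin1 over WT, of each gene tested in the 8 listed genes and the lists set beside them; filled circles passed the test, open circles did not, and black bars are medians. The 8 genes (median -0.66) and other sterol enzymes (median -0.93) lie to the left of 0, isoprenoid branches around 0 (median 0.02), and the 5 translation genes, all filled, at -3.00 to -2.14.

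Genes whose RPF level followed the mean of the 8 most closely were sought among 7721 genes with a mean of at least 10 CPM in the 6 Torin1 and WT libraries. The highest Pearson r values of log2(CPM + 1) over these 6 libraries, given as a description, were 0.988 for Atp5h, 0.980 for Nap1l1 and Ywhag, 0.979 for Rps23 and 0.978 for Mrpl34. None of them was called under Torin1, and 156 genes had r above 0.9. Each of the 8 enzymes correlated with the mean of the other 7 at between 0.753 (Hmgcs1) and 0.980 (Cyp51). The points share library scaling and fall in 2 groups.

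The libraries labelled C1483Y were compared with the same WT libraries, so this comparison shares its WT values with the one above. RPF of the 8 enzymes summed to 673 ± 167 CPM in libraries labelled C1483Y and 3140 ± 483 CPM in WT (SD, n = 3 each). Of the 8, 5 fell, against 10.7% of all genes called lower and 7.91% called higher, and 0 rose. All 8 had every C1483Y library below every WT library, against 27.4% of all genes, and the median log2 change was -2.64, against -0.27 over all genes. In the same libraries 10 of 10 fibroblast markers fell and a few markers of other cells were high, as given above; the part of these in the result was not tested.

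Msmo1 had the lowest estimate. Its RPF level was 22.2, 5.45 and 17.9 CPM in C1483Y replicates 1, 2 and 3, against 397, 259 and 342 CPM in WT (log2 change -4.46, SE 0.51, edgeR adjusted p = 0.00026). Fdps fell too, to 93.6, 48.5 and 93.6 CPM in those libraries (log2 change -3.46, SE 0.362, adjusted p = 0.000192). Hmgcs1 fell as well, with 78.6, 31.2 and 121 CPM labelled C1483Y (log2 change -2.43, SE 0.449, adjusted p = 0.00377). Replicate 2 held the lowest value of each of these genes. Sqle had 26.7, 25.5 and 100 CPM labelled C1483Y (log2 change -2.56, SE 0.519, adjusted p = 0.00617). Replicate 3 stood above the other two libraries.

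Cyp51 changed least among the genes that fell, with 256, 212 and 255 CPM labelled C1483Y (log2 change -0.98, SE 0.265, adjusted p = 0.0254), and its call was lost without WT replicate 1 and without WT replicate 2. At each of these settings 4 of 8 were called lower, against 6.83% of all genes without WT replicate 1 and 6.13% without WT replicate 2. Fdft1, with 163, 159 and 92.4 CPM, did not pass (log2 change -0.86, SE 0.358, adjusted p = 0.123). Of the RPF reads of the 8 genes, Cyp51 took 36.9% ± 6.24 in libraries labelled C1483Y and 15.2% ± 1.5 in WT, and Fdft1 took 22.2% ± 10.7 in libraries labelled C1483Y and 7.98% ± 1.88 in WT. Idi1 and Lss had 64.0 and 35.2 CPM in C1483Y replicate 1 and 67.3 and 48.9 CPM in replicate 3, but 0.389 CPM each in replicate 2. With that library they did not pass (log2 change -2.72, adjusted p = 0.0938 for Idi1 and -2.92, adjusted p = 0.0577 for Lss), and without it both were called lower, making 7 of 8, against 14.8% of all genes at that setting.

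In mRNA labelled C1483Y, edgeR called 0 of 8, against 0.323% of all genes. An unadjusted p under 0.05 was found for 621 of all 7121 genes and for 0 of the 8 enzymes. DESeq2, with no adjusted p for 1, called 0 against 7.05% of all genes, and limma-voom 0 against 0.0281%. Hmgcs1 and Cyp51 had all 3 C1483Y libraries below the WT libraries, 2 of 8, against 9.49% of all genes. Several of these genes had few reads in replicates 1 and 3, which held 4.418 and 5.701 M gene reads, and in which 95.9% and 90.8% of all lines' reads were on the line for reads aligned to more than 1 place. That share was 59.5% in replicate 2 and 49.3% to 75.1% in the mRNA libraries of Torin1 and WT, and its part in the result was not tested. Msmo1 mRNA had 1.59, 337 and 2.27 CPM in C1483Y replicates 1, 2 and 3, against 322, 393 and 440 CPM in WT. Sqle mRNA had 1.59, 137 and 1.70 CPM labelled C1483Y, against 107, 243 and 305 CPM in WT. Hmgcs1 mRNA had 6.03, 116 and 1.32 CPM labelled C1483Y, with a log2 change of -3.78 (SE 1.95, adjusted p = 0.544). Fdps mRNA had 82.8, 1140 and 220 CPM in these 3 libraries. For Idi1 the values were 8.88, 0 and 0.568 CPM and for Cyp51 247, 29.5 and 1.89 CPM, and replicate 1 was the highest library for both. Replicate 2 is the library close to identical with Torin1 replicate 3. Fibroblast markers summed to 1320, 17000 and 2480 CPM in the same 3 libraries, against 11700 to 21100 CPM in WT. Muscle and adipocyte markers summed to 3720, 0.128 and 2440 CPM, nearly all from Acta1, against 0.196 to 0.222 CPM in WT. Neuron and glia markers summed to 1930, 0.106 and 337 CPM, from Tubb3 and Uchl1 in replicate 1 and Tubb3 in replicate 3, against 0.0277 to 0.0452 CPM in WT. Markers of epithelium, leukocytes and endothelium, and hepatocytes and steroid-making cells were at 0 in all mRNA libraries. The part of these markers in the result was not tested. The median log2 change of the 8 was -2.40 with replicate 2 and -6.49 without it, while the median over all genes was -0.50 with it and -2.43 without it.

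Among the lists set beside the 8, RPF labelled C1483Y differed in both directions. Beside the counts that follow, 10.7% of all 11085 genes were called lower and 7.91% called higher. Of the 13 other sterol enzymes 4 fell (Mvk, Lbr, Nsdhl and Hsd17b7) and 1 rose. The one that rose was Dhcr7, with 468, 574 and 529 CPM labelled C1483Y against 49.6, 40.4 and 74.7 CPM in WT (log2 change 3.25, adjusted p = 0.00041). Its direction was opposite to that of the 8 enzymes in the same libraries. Of 14 uptake and transport genes 6 fell, among them Lrp1 (log2 change -3.88, adjusted p = 0.000206), Scarb1, Npc2, Tmem97 and Abca1, an efflux pump with 0 reads in all 3 C1483Y libraries and 44, 64 and 178 reads in WT. Srebf2 fell, with 70.6, 32.3 and 92.0 CPM labelled C1483Y (log2 change -2.14, adjusted p = 0.00361), as did Srebf1, while Scap and Mbtps2, which escort and cleave the Srebp precursor, rose. Of the isoprenoid genes 1 of 7 rose, Nus1, and of the fatty acid genes 5 of 9 fell (Fasn, Scd1, Scd2, Fads1 and Fads2). Of the 5 translation genes, Rps6 and Tpt1 fell, while Eef1a1, Eef2 and Pabpc1 were not called and had log2 changes of -0.06, -0.04 and -0.06.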

How the data were processed

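RPF and mRNA were sequenced in 18 libraries, 3 per group and assay. Each file the authors deposited holds whole-number counts of reads per gene symbol for 1 library, not normalized. Bowtie 1.1.2, TopHat2 2.1.1, HTSeq and build mm10 are named, without roles or settings, per the submitters' processing notes. Lines with a date for a symbol (27, holding 0.089% to 0.264% of gene counts) and the 5 summary lines were left out. The line for reads aligned to more than 1 place held 22.2% to 47.5% of all lines' reads in RPF and 49.3% to 95.9% in mRNA libraries, so a gene with a near-identical copy would be undercounted. No molecular identifiers are mentioned, so PCR copies count as reads.

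Counts were tested with edgeR 4.0.16 in R 4.3.3: quasi-likelihood test, group means, filterByExpr and TMM within an assay, two-sided, Benjamini-Hochberg over all genes tested, threshold 0.05. RPF and mRNA fits used all 9 libraries of the assay, and TE was the interaction over 18 libraries. DESeq2 1.42.0 and limma-voom (limma 3.58.1) were alternatives, with other scaling, no filter, the groups alone, the replicate number as a block and each library left out. Scripts were tested on simulated counts with less spread than these libraries, which does not measure how often a change here would be missed. Of 24035 symbols 22550 were found in RefSeq (GRCm38.p6), which gave positions and promoters. Levels per coding length were not computed, so levels are not compared between genes. The text names all 8 genes, each gene of the lists set beside them that passed in a comparison, Srebf2 and Insig1 always, and the 5 genes most like the 8; some genes of these lists are not reported here. The members and lists were chosen with earlier results of these data known.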

Additional observations from a re-analysis of the deposited data

How the results depend on the processing

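Settings are compared with the edgeR fit over 9 libraries (18 for TE), and the cause of each change was not tested. In RPF under Torin1, 2 of 8 enzymes were called by limma-voom and 1 with the groups alone. The median log2 change of the 8 ran from -0.779 to -0.393 over libraries left out, and that of Sqle from -0.399 to 0.00344. Genes called in all, 83 as reported, were 148 by DESeq2, 206 by limma-voom and 33 to 62 with a library left out. In RPF labelled C1483Y the 8 genes had 4 to 7 calls: Hmgcs1, Fdps, Sqle and Msmo1 in all 12 alternatives, Cyp51 in 10, Lss in 5, Idi1 in 4 and Fdft1 in 0. Genes called in all were 2060 as reported, 3340 by DESeq2 and 1163 to 3161 with a library left out.

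In mRNA under Torin1 genes called in all were 1 as reported, 499 by DESeq2 and 16 by limma-voom. The near-identical libraries, when left out, gave log2 changes of 0.288 for Idi1 and -0.166 for Fdft1. Over libraries left out Idi1 ran from -1.07 to 0.289, Fdft1 from -0.164 to 1.58, Lss from -1.49 to 0.335 and Sqle from -0.402 to 0.175. For C1483Y the median of the 8 ran from -6.49 to -1.85 over libraries left out and was -6.47 without the near-identical libraries, and Fdft1 ran from -5.82 to 0.192. There genes called in all were 23 as reported, 502 by DESeq2, 145 without the near-identical libraries and 172 without C1483Y replicate 2. The median of all genes was -0.50 under TMM and 0.985 with DESeq2 size factors, and that of the 8 was -2.40 and -1.66.

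The median TE change was 0.52 by limma-voom, 0.0108 with no filter, 0.0279 with the groups alone, 0.439 without the near-identical libraries and 0.071 with TMM over 18 libraries, and ran from -0.374 to 0.515 over libraries left out. The TE of Msmo1 was 0.0888 by DESeq2 and with its size factors, 0.57 by limma-voom, 0.0461 with no filter, 0.0812 with the groups alone, 0.946 without the near-identical libraries and 0.063 with TMM over 18 libraries. That of Fdps was 0.47 by limma-voom and 0.388 without the near-identical libraries, and that of Sqle 0.079 with TMM over 18 libraries. Over libraries left out, TE ran from -0.475 to 0.967 for Msmo1, -0.919 to 0.474 for Fdps, -0.492 to 0.397 for Sqle, -0.907 to 1.02 for Lss and -0.0442 to 1.35 for Cyp51. Genes called in TE were 2 as reported, 543 by DESeq2, 17 by limma-voom and 44 without the near-identical libraries.

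With the replicate number as a block, mRNA log2 changes under Torin1 were 1.96 for Idi1, -0.0939 for Fdft1, 0.116 for Sqle and 0.513 for Lss, the median TE change was -0.341 and the TE of Lss -0.979; no call among the 8 changed, and genes called were 85 (RPF, Torin1), 0 (mRNA, Torin1), 2 (TE), 1595 (RPF, C1483Y) and 17 (mRNA, C1483Y). Same-numbered deviations from group means correlated at 0.142, 0.0592 and 0.0347 in RPF for Torin1 and WT. In RPF each Torin1 and C1483Y library correlated best with the WT library of its own number, though weakly. The labels do not say what same-numbered libraries share, and it was not tested. The RPF libraries labelled C1483Y held 4.681 to 6.962 M gene reads, fewer than the other RPF libraries, which limits the precision of their low counts.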
